A study of Homo sapiens with 4 samples.

Results

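Small nucleolar RNAs, small Cajal body RNAs and the genes named as small nucleolar RNA hosts were followed in 2 colorectal cancer cell lines after RNA interference against BORIS. The genes were taken by name: every gene whose symbol begins with SNORA, SNORD, SCARNA or SNHG and then a number, and that has a probe set paired with it alone. There were 58 of them among 18132 genes, namely 37 SNORA, 7 SNORD, 4 SCARNA and 10 SNHG genes, and the probe set that was brightest on average over the 4 arrays stood for each. HCT116 and Caco-2, both established human colorectal cancer lines, were transfected with either BORIS siRNA or negative control siRNA, and their RNA was hybridised to 4 PrimeView arrays 3 days later. The groups were HCT116 with BORIS siRNA, HCT116 with control siRNA, Caco-2 with BORIS siRNA and Caco-2 with control siRNA, with 1 array in each. BORIS is the protein of CTCFL, a relative of the chromatin insulator protein CTCF. All cells, controls included, received a siRNA and the transfection reagent, and no untransfected cells were analysed here.

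Most human small nucleolar RNAs lie in introns of other genes and are trimmed from the excised intron. Box C/D RNAs (SNORD) guide the methylation of ribosomal RNA, box H/ACA RNAs (SNORA) guide the change of uridine to pseudouridine, and small Cajal body RNAs (SCARNA) guide the same changes in spliceosomal RNAs. SNHG genes carry such RNAs in their introns. Their spliced transcripts mostly encode no known protein, and many of them are known to start with a run of pyrimidines and to be cleared by nonsense-mediated decay. PrimeView labelling starts from the poly(A) tail, which mature small nucleolar RNAs lack, so how far a probe set of this kind reads the mature RNA, its precursor or the enclosing transcript was not tested. Of the 48 small RNA genes, 25 had a probe set built on the RefSeq record of that small RNA and 23 on another record. In the RefSeq table of assembly GRCh38.p14 the small RNA genes were 103 to 348 bases long.

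SNHG genes are shown first by the sequence around their annotated start, because 6 of the 8 that were expressed passed the test for a higher level in HCT116 than in Caco-2. The RefSeq promoter table of GRCh38.p14 held 9 of the 10 SNHG members. SNHG9, which passed that test, is not among them. The windows of the other 5 genes that passed are printed, with that of SNHG7, which did not pass and holds a pyrimidine run and TATAA. The windows of SNHG11, SNHG17 and SNHG28 hold neither and are not printed. Each line gives 40 bases before the start and 30 from it, 5′ to 3′ on the gene's strand. Capitals mark the unbroken run of C or T that begins at the start, and the letters TATAA where they lie within 40 to 11 bases before it.
SNHG12, chr1:28581844-28581913, minus strand: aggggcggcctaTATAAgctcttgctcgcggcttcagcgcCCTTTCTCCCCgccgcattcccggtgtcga
SNHG32, chr6:31834876-31834945, plus strand: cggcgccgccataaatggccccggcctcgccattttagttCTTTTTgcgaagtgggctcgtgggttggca
SNHG7, chr9:136728155-136728224, minus strand: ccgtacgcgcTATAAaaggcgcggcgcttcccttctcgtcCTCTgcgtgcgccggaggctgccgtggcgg
SNHG1, chr11:62855856-62855925, minus strand: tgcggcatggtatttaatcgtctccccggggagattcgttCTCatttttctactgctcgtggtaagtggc
SNHG8, chr4:118278722-118278791, plus strand: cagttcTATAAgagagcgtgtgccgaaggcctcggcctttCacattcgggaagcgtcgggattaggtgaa
SNHG29, chr17:16438947-16439016, plus strand: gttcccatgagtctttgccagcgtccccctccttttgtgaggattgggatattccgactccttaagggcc
The pyrimidine run from the start was 11 bases in SNHG12, 6 in SNHG32, 4 in SNHG7, 3 in SNHG1, 1 in SNHG8 and 0 in SNHG29, SNHG11, SNHG17 and SNHG28. A C at the start followed by 4 pyrimidines was found in 2 of the 9 SNHG members, against 4.07% of 35116 promoters in the table. TATAA on the gene's strand was found in 3 of the 9, against 4.06% of all promoters, and on the other strand in 0 of the 9, against 1.91%. Such a match describes the letters of the window only.

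Expression in a line means that either array of the line gave the gene a value no lower than that array's median, and these medians lay between 5.46 and 5.48 on the log2 scale. Background was set on each array at the level that 95% of 359 probe sets for olfactory receptors stayed below, which was 4.82 to 5.18. Of the 58 genes, 23 were expressed on at least 1 array: 8 of 10 SNHG, 11 of 37 SNORA, 3 of 4 SCARNA and 1 of 7 SNORD genes. Of these 23, 15 reached the median on all 4 arrays, 5 on HCT116 arrays alone (SCARNA14, SCARNA9L, SNORA12, SNORA72 and SNORA80E) and SNORD17 on Caco-2 arrays alone. SCARNA14 and SCARNA9L did so on the HCT116 array with BORIS siRNA and no other. The other 35 genes had values from 2.52 to 5.30, and 32 of them lay below background on all 4 arrays. Values of different probe sets are not compared as amounts of RNA, because probes differ in how brightly they bind.

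**Figure D1:**
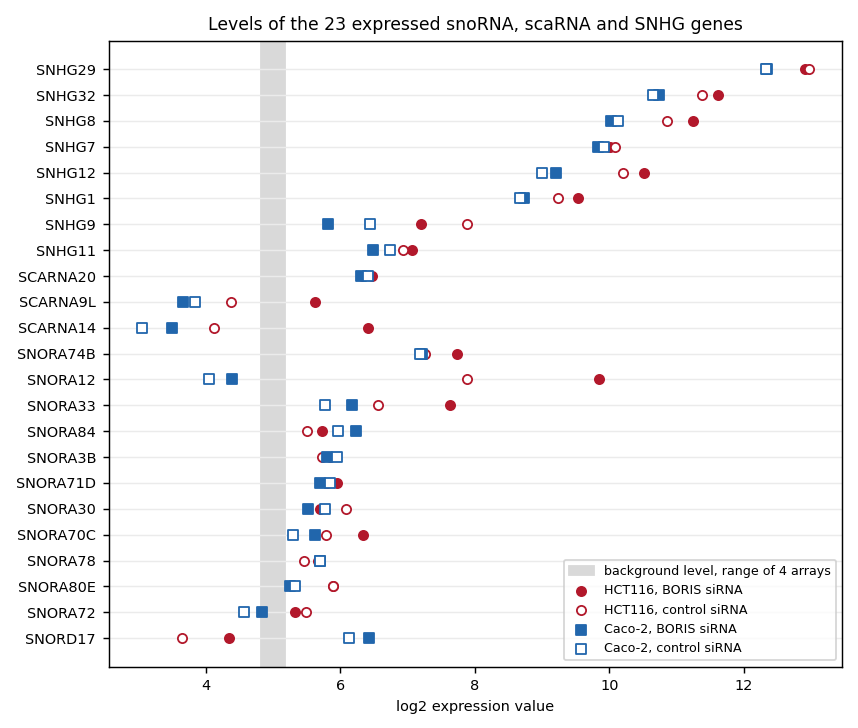
Log2 expression values (x axis) of the 23 expressed genes on each array, with HCT116 as circles, Caco-2 as squares, BORIS siRNA filled and control siRNA open. The grey band is the range of the background level over the 4 arrays. SNORA12 lies at 9.84 and 7.89 in HCT116 and left of the band in Caco-2, and SNORD17 shows the opposite placement.

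The siRNA labels had no check from the target itself. CTCFL read 4.93 with BORIS siRNA and 5.07 with control siRNA in HCT116. In Caco-2 it read 5.09 with BORIS siRNA and 5.07 with control siRNA, near background throughout. Of 8 epithelial markers, EPCAM, KRT8, KRT18 and KRT19 were above 12 on all arrays and CDH1 read 7.01 to 9.61. KRT20 read 5.43 to 5.72 in HCT116 and 11.59 to 12.04 in Caco-2, and CDX2 6.91 to 7.23 in HCT116 and 5.19 to 5.77 in Caco-2. VIL1 was below background in HCT116, at 2.77 and 3.68, and read 9.33 and 9.57 in Caco-2. The fibroblast markers COL1A1, COL1A2, DCN and LUM lay below background on all 4. The 4 enterocyte genes APOA1, FABP1, ALPI and SI were not expressed in either line. Of the blood markers, PTPRC and CD3E were not expressed and CD68 read 5.46 to 5.96, and of the endothelial markers PECAM1 and CDH5 were not expressed and VWF read 5.37 to 6.05. The 24 poly-A spike-in control probe sets, which report RNA added in a fixed amount, were higher by a median of 0.88 with BORIS siRNA in HCT116 and differed by a median of -0.08 in Caco-2. Hybridisation controls were higher by a median of 0.39 in HCT116 with BORIS siRNA.

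The first question was which of these genes differed between BORIS and control siRNA in HCT116. With 1 array per group there is no replicate and no p-value, and 2-fold, a log2 difference of 1, is used as a size. At 2-fold or more, 4 of the 22 genes expressed in HCT116 were higher with BORIS siRNA and 0 were lower, where 0.583% of 10631 expressed genes were higher and 1.45% lower. SCARNA14 and SCARNA9L entered only through the array on which they were high, so they had to differ. Over all levels 5 of 58 were higher and 0 lower, where 0.474% and 0.976% of 18132 genes were. These counts include SCARNA9L, whose control value was below background, and over all levels SNORA23, whose values were both below it. With values below background raised to it, 3 genes were left in either count and 0 were lower: SCARNA14, SNORA12 and SNORA33. The shares were then 0.508% higher and 1.31% lower among expressed genes, and 0.298% and 0.767% among all genes. The spike-in and hybridisation controls named above moved the same way on this pair of arrays, and their part in the counts was not tested.

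SNORA12, a box H/ACA RNA, read 9.84 with BORIS siRNA and 7.89 with control siRNA in HCT116. Both values stood well above background, and the difference of 1.96 corresponds to 3.88-fold. It has 1 probe set, built on a record other than its RefSeq entry. In Caco-2 SNORA12 read 4.39 with BORIS siRNA and 4.04 with control siRNA, both at background, and has no fold there.

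SCARNA14, a small Cajal body RNA, read 6.41 with BORIS siRNA and 4.12 with control siRNA in HCT116. The control value was at background, so the probe set was higher by at least 1.31. Its other probe set read 5.20 with BORIS siRNA and 3.65 with control siRNA, again with only the BORIS siRNA array at or above the background level. In Caco-2 both probe sets lay between 3.05 and 3.49 on either array.

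SCARNA9L, a relative of the Cajal body RNA SCARNA9, read 5.62 with BORIS siRNA and 4.37 with control siRNA in HCT116, a difference of at least 0.52 against background. The other probe set read 5.25 with BORIS siRNA and 4.34 with control siRNA. The brighter of these is of the _x_at kind, which can bind related transcripts, so reads of near-identical copies are not separated. Both probe sets were at background in Caco-2, with values of 3.20 and 3.66 with BORIS siRNA and 3.75 and 3.83 with control siRNA.

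SNORA33, a box H/ACA RNA enclosed by the ribosomal protein gene RPS12, read 7.63 with BORIS siRNA and 6.56 with control siRNA in HCT116. In Caco-2 it read 6.17 with BORIS siRNA and 5.77 with control siRNA. The differences were 1.06 in HCT116 and 0.40 in Caco-2, and all 4 values lay above background. SNORA33 has 1 probe set, built on a record other than its RefSeq entry. RPS12 itself had no probe set paired with it alone.

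The remaining small RNAs expressed in HCT116 differed by less than 2-fold. SNORA70C read 6.33 with BORIS siRNA and 5.78 with control siRNA, a difference of 0.55. SNORA74B read 7.73 with BORIS siRNA and 7.26 with control siRNA, a difference of 0.47, and its second probe set gave 0.40. Both were higher with BORIS siRNA and above background on both arrays. SNORA84 read 5.73 with BORIS siRNA and 5.50 with control siRNA. SNORA78 read 5.67 with BORIS siRNA and 5.46 with control siRNA. These 2, with SNORA71D, SCARNA20 and SNORA3B, were higher by 0.12 to 0.23. SNORA80E read 5.89 on both arrays. SNORA72 read 5.33 with BORIS siRNA and 5.49 with control siRNA. SNORA30 read 5.70 with BORIS siRNA and 6.09 with control siRNA, a difference of -0.39, whereas its second probe set, at 4.91 with BORIS siRNA and 4.57 with control siRNA, went the other way below background.

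Among the host genes in HCT116, SNHG8 read 11.24 with BORIS siRNA and 10.86 with control siRNA. SNHG12 read 10.51 with BORIS siRNA and 10.21 with control siRNA, and SNHG1 9.53 with BORIS siRNA and 9.23 with control siRNA. These 3, together with SNHG32, also known as C6orf48, and SNHG11, were higher by 0.14 to 0.38. SNHG29 and SNHG7 differed by -0.06 and -0.07. SNHG9 read 7.20 with BORIS siRNA and 7.88 with control siRNA, and its difference of -0.68 was the most negative of the 22 genes expressed in HCT116. Over the class, 5 of 8 expressed host genes were higher and the median was 0.19. Among the small RNAs expressed in HCT116 11 of 14 were higher with a median of 0.21. The 11 include SCARNA14 and SCARNA9L, which entered through the array with BORIS siRNA alone and so had to be higher. Of all genes expressed in HCT116, 44.5% were higher.

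Over all 22 genes the median difference in HCT116 was 0.21, with 16 higher and 5 lower. The 16 include SCARNA14 and SCARNA9L, which had to be higher. The median of all 10631 expressed genes was -0.05 and 44.5% of them were above 0. Over all levels the median was 0.19 for the 58 genes, with 38 above 0, and 0.01 for all 18132 genes, of which 50.6% were above 0. Of the 35 genes expressed on no array, 21 were higher, where 60% of the 6967 genes expressed on no array were. SNORA23 read 5.10 with BORIS siRNA and 3.55 with control siRNA, both at background, and no fold is given. SNORA65, at 5.18 with BORIS siRNA and 4.58 with control siRNA, just reached background on the array with BORIS siRNA.

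**Figure D2:**
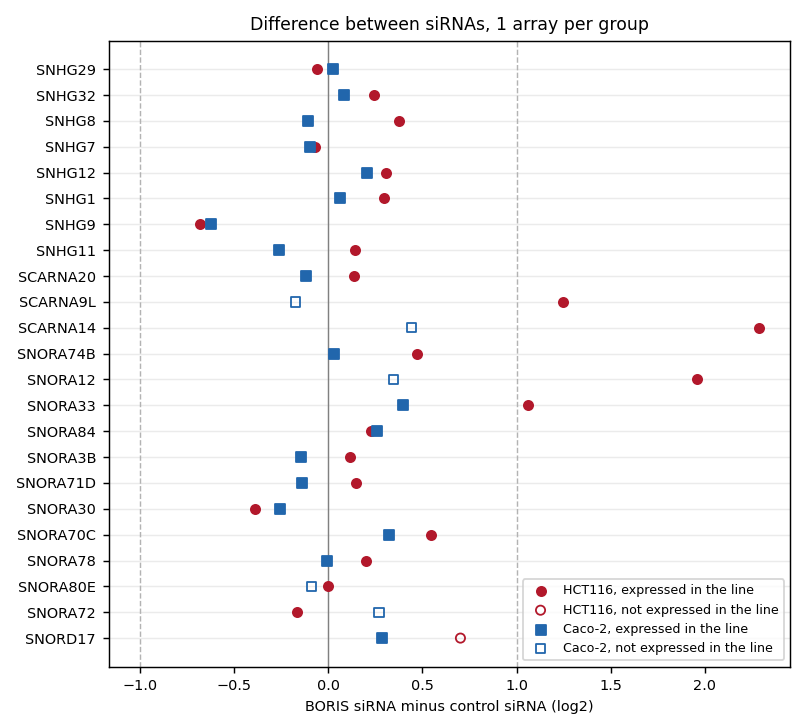
Log2 difference, BORIS siRNA minus control siRNA (x axis), for the 23 expressed genes, with HCT116 as circles and Caco-2 as squares; filled symbols mark genes expressed in that line and dashed lines mark 2-fold. Only SCARNA14, SNORA12, SCARNA9L and SNORA33 lie beyond a dashed line, all of them in HCT116, SCARNA14 and SCARNA9L against control values at background.

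The same question in Caco-2 gave no gene at 2-fold. Of the 18 genes expressed there, 0 were higher and 0 lower at that size, where 0.404% and 0.0481% of 10389 expressed genes were. The differences ran from -0.62 to 0.40 with a median of 0.01 and 9 of 18 above 0, beside a median of 0.00 for all expressed genes, 50.5% of which were above 0. Over all levels 0 of 58 were higher and 0 lower at 2-fold, where 0.298% and 0.0496% of all genes were, and 24 of 58 were above 0, where 43.7% of all genes were. SNHG9 was the lowest with 5.82 with BORIS siRNA and 6.44 with control siRNA, a difference of -0.62, and SNORA33 the highest.

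Differences of the other expressed small RNAs in Caco-2 ran from -0.25 to 0.32. SNORA70C was at the upper end, with 5.62 with BORIS siRNA and 5.30 with control siRNA, and SNORA30 at the lower end, with 5.52 with BORIS siRNA and 5.77 with control siRNA. SNORD17 read 6.42 with BORIS siRNA and 6.14 with control siRNA. SNORA84 was higher by 0.26 and SNORA74B by 0.03, and SNORA78 read 5.70 on both arrays. SNORA3B, SNORA71D and SCARNA20 differed by -0.14, -0.14 and -0.12. The host genes other than SNHG9 differed by 0.26 or less in either direction. SNHG12 read 9.21 with BORIS siRNA and 9.0025 with control siRNA. SNHG11 read 6.48 with BORIS siRNA and 6.75 with control siRNA. Of the 8 expressed host genes 4 were higher with BORIS siRNA, with a median of -0.03.

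**Figure D3:**
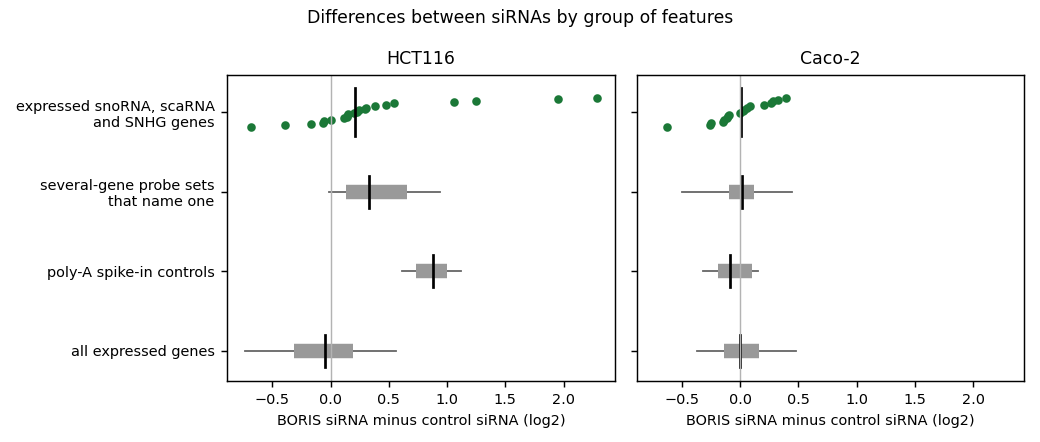
Log2 difference, BORIS siRNA minus control siRNA (x axis), in HCT116 and Caco-2. Points are the expressed genes of the snoRNA, scaRNA and SNHG group; for the other rows the thick bar spans the middle 50% of features, the thin line the 5th to 95th percentile, and the black stroke is the median. In HCT116 the medians are 0.21 for the group, 0.88 for the spike-in controls and -0.05 for all expressed genes.

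Whether an siRNA effect was common to HCT116 and Caco-2 was asked with limma on all 4 arrays, the cell line being the block, for 11165 genes expressed on at least 1 array. This fit has 1 residual degree of freedom, and its spread is the disagreement between the lines, which eBayes pools with that of other genes. None of the 23 genes passed at an adjusted p under 0.05, where 0% of all genes did, and 4 of the 23 had an unadjusted p under 0.05, where 6% of all genes had. Over all levels 7 of 58 had, where 4.79% of 18132 genes had. Of the 4, SNORA33 had a shared difference of 0.73 ± 0.23 (SE) and SNHG9 of -0.65 ± 0.18 (SE), each at a limma adjusted p of 0.769. The other 2 were SNORA12 and SCARNA14, which were at background on both Caco-2 arrays, so that no size of a shared difference is given. SCARNA14 had also entered through the HCT116 array with BORIS siRNA alone. After quantile normalization SNORA12 (limma adjusted p = 0.000434) and SCARNA14 (limma adjusted p = 0.0382) passed, and after a loess correction SNORA12 alone did (limma adjusted p = 0.0225). Neither gene has a measured difference in Caco-2, so these passes show no effect common to both lines. Of all genes 0.949% passed after quantile normalization and 0.466% after the loess correction. SNHG9 was lower and SNORA33 higher with BORIS siRNA in both lines. SNHG9 has 1 probe set, of the _s_at kind, which can also bind similar transcripts. A test of the difference between the lines would need more than 1 array per group.

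The next comparison set HCT116 against Caco-2 in the same limma fit, with siRNA as the block and 2 arrays per line. Of the 23 genes, 9 were higher and 1 lower in HCT116 at an adjusted p under 0.05. Over all 11165 genes 19.4% were higher and 19.8% lower, so 39.2% of all genes differed between the lines, and 43.5% of these 23 did. Of the 10 called, SNORA12 and SCARNA14 reached the expression filter through HCT116 arrays alone and SNORD17 through Caco-2 arrays alone. For these the filter favoured a difference in the direction found. SCARNA9L, SNORA72 and SNORA80E also entered through HCT116 arrays alone and were not called. With no filter 9 of 58 were higher and 1 lower, where 10.9% and 10.5% of 18132 genes were.

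SNORA12 read 9.84 and 7.89 with BORIS and control siRNA in HCT116, and 4.39 and 4.04 with BORIS and control siRNA in Caco-2. The lines did not overlap, and since both Caco-2 values were at background the gene was at least 15.2-fold higher in HCT116, or at least 3.93 on the log2 scale. It passed the limma test (adjusted p = 0.000223). Within 1 siRNA it was at least 32.6-fold higher in HCT116 with BORIS siRNA and at least 7.08-fold higher with control siRNA.

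SNORD17, the only box C/D RNA that was expressed, read 4.35 and 3.65 in HCT116, both at background, and 6.42 and 6.14 in Caco-2. It was at least 2.21-fold lower in HCT116 (limma adjusted p = 0.000972). Within 1 siRNA it was at least 2.37-fold lower with BORIS siRNA and at least 2.05-fold lower with control siRNA. SNORD17 too has 1 probe set, built on a record other than its RefSeq entry.

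SNORA33 read 7.63 and 6.56 in HCT116, against 6.17 and 5.77 in Caco-2, a difference of 1.13 ± 0.23 (SE, limma adjusted p = 0.00969). The difference was 0.59 without the HCT116 array with BORIS siRNA and 0.93 without the Caco-2 array with control siRNA. It was 1.66 without the HCT116 control array and 1.32 without the Caco-2 array with BORIS siRNA. SCARNA14 was at background on 3 of the 4 arrays, and its mean was higher in HCT116 by at least 0.32 (limma adjusted p = 0.0172). Without the HCT116 array with BORIS siRNA, SCARNA14 was at background on every array. SCARNA9L, whose means were at background in both lines, missed the threshold (limma adjusted p = 0.0503). With both Caco-2 values at background, its difference of means as read was 0.62 without the HCT116 array with BORIS siRNA. All values left in that comparison were at background. The difference as read was 1.87 without the HCT116 control array. It was 1.16 without the Caco-2 array with BORIS siRNA and 1.33 without the Caco-2 control array. No size against background is given for these differences.

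Of the 8 expressed host genes, 6 were higher in HCT116 and none was lower, where 19.4% and 19.8% of all genes were. SNHG12 read 10.51 and 10.21 in HCT116, against 9.21 and 9.0025 in Caco-2, a difference of 1.25 ± 0.16 (SE, limma adjusted p = 0.00163). SNHG9 read 7.20 and 7.88 in HCT116, against 5.82 and 6.44 in Caco-2, which gave 1.41 ± 0.18 (SE) on its 1 probe set, of the _s_at kind. SNHG8 differed by 0.97 ± 0.17, SNHG32 by 0.80 ± 0.13, SNHG1 by 0.67 ± 0.18 and SNHG29 by 0.60 ± 0.09 (SE), each past the limma test. For these 6 genes both HCT116 arrays read above both Caco-2 arrays, and the second probe sets of SNHG12 and SNHG32 gave 1.32 and 0.86. SNHG29 had a second bright probe set at 0.58 and a dim one at -0.14, and with the mean of its probe sets it no longer passed, at 0.35 (limma adjusted p = 0.0855). With 1 array left out, the SNHG1 difference ran from 0.53 to 0.82. SNHG11 and SNHG7, at 0.39 ± 0.20 and 0.17 ± 0.15 (SE), did not pass, and the second probe set of SNHG7 gave -0.02. The median line difference was 0.74 for the 8 expressed host genes, 0.30 for the 15 expressed small RNAs and 0.01 for all 11165 genes.

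Small RNAs that did not pass were close to the threshold or near 0. SNORA70C at 0.60 ± 0.22 (SE) and SNORA80E at 0.60 ± 0.22 had limma adjusted p of 0.0696 and 0.0720. SNORA72, whose Caco-2 mean was below background, was higher in HCT116 by at least 0.47 (limma adjusted p = 0.0733). SNORA84 was the only other expressed small RNA below -0.2, -0.48 ± 0.21 (SE, limma adjusted p = 0.113), with 5.73 and 5.50 in HCT116, against 6.23 and 5.97 in Caco-2. SNORA74B differed by 0.30, SNORA30 by 0.25, SNORA71D by 0.10, SCARNA20 by 0.04, SNORA3B by -0.08 and SNORA78 by -0.14. The other probe sets of SCARNA20 gave 1.24, with both Caco-2 values below or near background, and 0.49. With the mean of its probe sets SCARNA20 passed, at 0.59 (limma adjusted p = 0.0422).

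**Figure D4:**
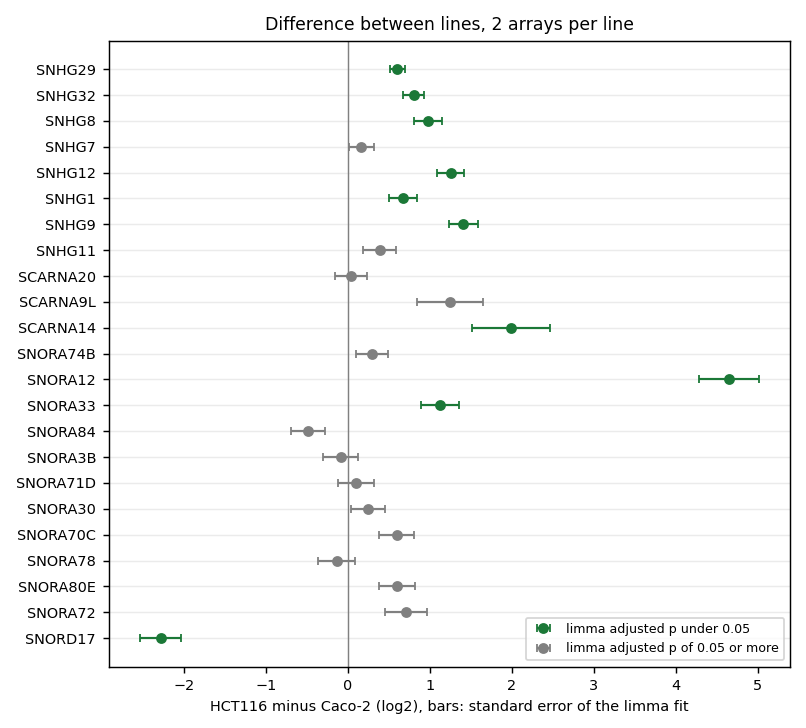
Log2 difference, HCT116 minus Caco-2 (x axis), for the 23 expressed genes, fitted over 2 arrays per line with siRNA as a block; bars are standard errors and green marks a limma adjusted p under 0.05. SNORA12 lies at 4.65 and SNORD17 at -2.28, each plotted against values at background in the other line, and all 8 SNHG genes lie right of 0.

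The small RNAs were then set beside the genes that enclose them. All 48 lay within at least 1 protein-coding or long noncoding gene of the RefSeq table, whose entries for small RNAs carry no strand, so enclosure is stated without it. For 42 of them there was exactly 1 such gene with a probe set of its own. SNORA12 lies in CWF19L1, which read 8.67 with BORIS siRNA and 8.04 with control siRNA in HCT116. In Caco-2 it read 7.85 with BORIS siRNA and 8.23 with control siRNA. CWF19L1 was thus higher by 0.63 in HCT116, where SNORA12 was higher by 1.96. Between the lines CWF19L1 differed by 0.32 ± 0.26 (SE, limma adjusted p = 0.387), where SNORA12 was higher by at least 3.93.

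SCARNA14 lies in TIPIN, which encodes a replication fork protein and read 8.98 with BORIS siRNA and 8.74 with control siRNA in HCT116, a difference of 0.24. SCARNA9L lies in the translation initiation factor gene EIF1AX, which differed by 0.12 between siRNAs in HCT116 and by -1.34 ± 0.17 (SE) between the lines, where SCARNA9L means were at background in both. SNORD17 lies in the sorting nexin gene SNX5, which read 10.24 and 10.30 in HCT116, against 10.62 and 10.63 in Caco-2, a difference of -0.36 ± 0.14 (SE, limma adjusted p = 0.0943). SNORA78 lies in SNHG9, and in HCT116 the small RNA differed by 0.20 and the host by -0.68 between siRNAs. Between the lines they differed by -0.14 and 1.41.

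Among 12 pairs with both partners expressed on at least 1 array, 4 had the same sign of siRNA difference in HCT116. In Caco-2 6 had, and 8 for the line difference. The median in HCT116 was 0.35 for the small RNAs and -0.13 for the enclosing genes. Across these 12 pairs, which share arrays, Pearson's r was 0.57 and Spearman's rho 0.72 in HCT116, 0.14 and 0.09 in Caco-2, and -0.03 and 0.03 for the line difference. The 12 include SCARNA14 and SCARNA9L, expressed on the HCT116 array with BORIS siRNA alone. These 2, SNORA12, SNORA72 and SNORA80E were not expressed in Caco-2, and SNORD17 was not expressed in HCT116. Values at background entered the signs, r and rho as read, so these partly rest on differences without a fold. Over all 42 pairs at any level, r was 0.39 and rho 0.30 in HCT116, 19 had the same sign, and the medians were 0.16 for the small RNAs and -0.19 for the enclosing genes. These are descriptions of the pairs with no test.

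**Figure D5:**
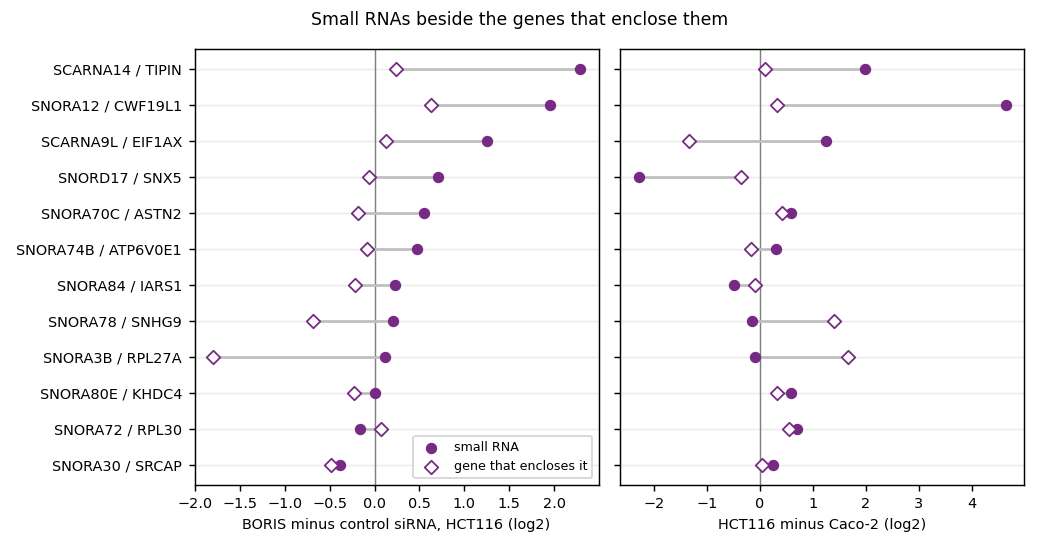
Log2 differences of 12 expressed small RNAs (filled circles) and of the genes that enclose them (open diamonds), BORIS siRNA minus control siRNA in HCT116 on the left and HCT116 minus Caco-2 on the right. The small RNA lies right of its enclosing gene in 11 of 12 pairs on the left and in 8 of 12 on the right. For the siRNA difference in Caco-2, not plotted, the small RNA was above its enclosing gene in 9 of 12. The 11 include SNORD17, which was at background on both HCT116 arrays. They also include SCARNA14 and SCARNA9L, which entered through the array with BORIS siRNA alone and so had to be higher.

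Genes for the proteins that bind, assemble, trim and clear these RNAs were read from lists, and in each list the 4 genes with the largest difference in any comparison are named. None of the 4 box C/D proteins reached 2-fold between siRNAs in either line, and the median was 0.08 in HCT116 and -0.03 in Caco-2. In HCT116 the methyltransferase gene FBL read 11.64 with BORIS siRNA and 11.90 with control siRNA, and NOP56 read 11.93 with BORIS siRNA and 11.64 with control siRNA. NOP58, a scaffold protein of the same particle, was higher by 0.14 in HCT116 and 0.23 in Caco-2. Between the lines SNU13 was higher in HCT116 by 0.48 ± 0.13 and FBL lower, at -0.46 ± 0.11 (SE).

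None of the 4 box H/ACA proteins reached 2-fold between siRNAs, and the median was 0.12 in HCT116 and -0.17 in Caco-2. DKC1, the pseudouridine synthase, differed by 0.09 in HCT116 and 0.01 in Caco-2. GAR1, NOP10 and NHP2, its partners in the particle, differed by 0.22, 0.16 and -0.20 in HCT116 and by -0.16, -0.27 and -0.18 in Caco-2. Between the lines DKC1 was lower in HCT116, at -0.64 ± 0.12 (SE), and the other 3 did not pass.

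Among 13 expressed assembly and transport factors the siRNA median was -0.0035 in HCT116 and 0.08 in Caco-2, with none at 2-fold. Between the lines 3 of the 13 were higher in HCT116 and 2 lower, where 19.4% and 19.8% of all genes were. NAF1, an H/ACA assembly factor, was higher by 0.74 ± 0.23 and NUFIP1, a box C/D assembly factor, by 0.70 ± 0.18 (SE). TCOF1 and the export adaptor gene PHAX were lower, at -0.91 ± 0.18 and -0.83 ± 0.18 (SE).

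The 8 expressed Cajal body genes had siRNA medians of -0.05 in each line and none at 2-fold. WRAP53, which brings RNAs to Cajal bodies, read 8.37 with BORIS siRNA and 8.97 with control siRNA in HCT116. GEMIN2 was higher by 0.69 in HCT116 and USPL1 by 0.74 in Caco-2. Between the lines GEMIN2 was higher in HCT116 by 1.09 ± 0.24 and TGS1, the cap hypermethylase gene, by 0.57 ± 0.18 (SE). No other gene of the 8 passed, where 19.4% of all genes were higher and 19.8% lower.

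Of the 16 expressed nonsense-mediated decay genes, 12 were lower with BORIS siRNA in HCT116, where 55.4% of all expressed genes were, and 11 in Caco-2, where 49.4% were. The medians were -0.18 in HCT116 and -0.08 in Caco-2, with none at 2-fold. SMG5 read 5.53 with BORIS siRNA and 6.32 with control siRNA in HCT116. Between the lines 3 of the 16 were higher in HCT116 and 2 lower, where 19.4% and 19.8% of all genes were. UPF2, a core factor of this decay, read 7.81 and 7.60 in HCT116, against 10.67 and 10.20 in Caco-2, a difference of -2.73 ± 0.18 (SE, limma adjusted p = 9.2e-05). SMG5 was also lower in HCT116, at -1.19 ± 0.22 (SE), and EIF4A3 and SMG8 were higher by 0.75 ± 0.12 and 0.74 ± 0.17 (SE).

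The 18 expressed exosome and trimming genes had siRNA medians of 0.04 in HCT116 and 0.01 in Caco-2, also with none at 2-fold. Between the lines 5 of the 18 were higher in HCT116 and 1 lower, where 19.4% and 19.8% of all genes were. The exosome subunit genes EXOSC4, EXOSC9 and EXOSC10 were higher by 1.43 ± 0.17, 1.33 ± 0.17 and 0.74 ± 0.17 (SE), and PARN, a poly(A) ribonuclease, by 0.78 ± 0.18 (SE).

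Host genes without an SNHG name had siRNA medians of 0.00 over the 52 expressed in HCT116 and -0.01 over the 51 expressed in Caco-2. RPL27A alone reached 2-fold, with 5.78 with BORIS siRNA and 7.58 with control siRNA in HCT116 on a single probe set. Between the lines 8 of these 52 hosts were higher in HCT116 and 6 lower, where 19.4% and 19.8% of all genes were. RPL27A was higher by 1.67 ± 0.33 and ZFAS1, a noncoding host, by 1.11 ± 0.14 (SE). The RPL27A probe set read 4.75 with BORIS siRNA in Caco-2, below background, and 5.26 with control siRNA, just above it. It was expressed in HCT116 alone. PRKAA1 and TNPO2 were lower, at -1.02 ± 0.18 and -0.99 ± 0.18 (SE).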

How the data were processed

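Total RNA of 4 cell line samples was measured on PrimeView arrays, with biotin-labelled cRNA made by a 3′ in vitro transcription kit, per the labels' protocols. Each deposited value is the log2 expression of a probe set, a unit read from the range of 2.13 to 14.2. How the authors corrected background, normalized and summarised is not given in the sources used here, and 0 columns belonged to other samples. Of 49395 probe sets, 44988 were paired with 1 gene by the platform's annotation, 1832 with several and 2569 were not listed. Entrez IDs, looked up in RefSeq (GRCh38.p14), changed 0 symbols. The 58 genes had 79 probe sets of their own, and 48 others that name them with further genes were not used for genes. Some probe sets, marked _x_at or _s_at, can also bind similar transcripts.

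Differences are BORIS siRNA minus control siRNA, or HCT116 minus Caco-2, on the log2 scale. Where the dimmer value was below background, the difference is a lower bound against that level. Tests used limma 3.58.1 in R 4.3.3 (lmFit, eBayes with trend) over all expressed genes, with Benjamini-Hochberg adjustment and a threshold of 0.05. The fit was tested on simulated data. Since nothing says that arrays of a line came from separate cultures, p-values measure only the spread between these arrays, whose number limits the precision. For each gene eBayes drew that spread mostly from the other genes, with 5.487 prior degrees of freedom against 1 residual in the fit used for the results above. The prior degrees of freedom under the alternatives are not given. The gene group, gene lists and tests were chosen with earlier results of these data known. Genes named were the expressed members, their enclosing genes, CTCFL, and the 4 genes per list with the largest difference in any of the 3 comparisons. Enclosure was to use strand, which the table lacks for small RNAs. Alternatives were no filter, a filter at background, the mean of all probe sets, quantile normalization, a loess correction, only probe sets without those 2 marks, 16 added on the linear scale, no trend, no siRNA block, leaving out each array, and values raised to background with and without the filter, the last 2 chosen after seeing the data.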

Additional observations from a re-analysis of the deposited data

Results flagged for a closer look

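A signal outside the values used for genes came from probe sets that name one of these small RNAs or hosts together with another gene. Of 48 such probe sets, 30 reached the array median. In HCT116 28 of the 30 were higher with BORIS siRNA, with a median of 0.33 and a range of -0.20 to 1.16, and 2 were higher by 2-fold or more and 0 lower. In Caco-2 17 of the 30 were higher, with a median of 0.01. Over all 956 expressed probe sets that name several genes, 494 were higher in HCT116, the median was 0.01, and 6 were higher and 8 lower by 2-fold or more. In Caco-2 429 of the 956 were higher. On the same pair of HCT116 arrays the spiked poly-A RNAs gave a median of 0.88. Their part in the result was not tested, and the difference between the lines was not tested.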

How the results depend on the processing

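No pairing of replicates was possible, as each group had 1 array and the labels give no replicate numbers. Arrays are matched only by cell line and siRNA, which the limma fits carry as blocks. The fits for the line difference that left out an array, and the setting named for it, carried no siRNA block. In HCT116 the count of higher genes at 2-fold was 4 as deposited, 2 with 16 added on the linear scale, and 3 to 5 under the other settings; none was lower at 2-fold under any setting. The HCT116 median stayed between 0.16 and 0.28. The Caco-2 median of 0.01 turned to -0.0751 without a filter, -0.0039 with the filter at background and -0.0132 after quantile normalization; no gene reached 2-fold there under any setting. For the shared effect 2 genes passed after quantile normalization and 1 after the loess correction, and the cause was not tested; leaving out an array leaves that fit no residual degree of freedom. For the line difference 2 genes were lower with the mean of all probe sets, where 20 genes were tested. Leaving out an array leaves 1 array in a line, so only the differences of those fits are given. Background is 1 level per array and no probe's own.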
